A study of Homo sapiens with 6 samples.

Results

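The genes described here are 10 enzymes of glycolysis: HK1, HK2, GPI, PFKL, PFKP, ALDOA, TPI1, ENO1, PKM and LDHA. They were chosen with earlier results of these data known. All 10 were found by gene symbol in a count table of 56638 rows. All 10 also passed the filter on low counts that left 13490 genes for testing. RNA was sequenced from MOLM-13 cells, an established line grown from human acute monocytic leukaemia with a KMT2A-MLLT3 fusion. The UC64 group held 3 libraries of cells given 2 µM UC-764864, which the series title calls an inhibitor of UBE2N, and the DMSO group 3 libraries of cells given the solvent. Both were collected after 24 h, and every library came from this 1 line. The comparison asks which transcripts differed after the compound.

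Glycolysis splits glucose into pyruvate in the cytosol and yields ATP and NADH on the way. Hexokinase traps glucose as its phosphate, phosphofructokinase makes the committed step, aldolase cleaves the sugar, and pyruvate kinase releases ATP with pyruvate. Lactate dehydrogenase then turns pyruvate into lactate and regenerates NAD+. Proliferating leukaemia cells use the pathway heavily, and the hypoxia factor HIF1A and the proto-oncogene product MYC are known to drive many of its genes through DNA sites with the core letters ACGTG or GCGTG and, for MYC, CACGTG.

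Libraries held 16136156 to 25014437 counts, and the 10 enzymes together took 1.12% to 1.27% of the counts in the rows compared. Libraries are called by their column names, UDI0051 to UDI0053 for UC64 and UDI0054 to UDI0056 for DMSO. In DMSO library UDI0055, 2 unbroken runs of 115 and 3684 rows stand at 0 where other libraries hold counts, so the comparison uses the rows that all 6 libraries hold. None of the 10 enzymes lies in these rows, but PGK1, the phosphoglycerate kinase of the pathway, does. Libraries UDI0052 and UDI0056 had the smallest shares of counts in genes with at least 60% GC, 9.4% and 9.62% against 11.4% to 13.1% in the others. All 11 myeloid and monocytic markers had counts, with a summed level of 6530 to 7570 CPM (counts per 1000000 counts of the library) in UC64 and 4330 to 4670 CPM in DMSO libraries, where CD14 stood at only 0.394 and 0.304 CPM on average. The higher sum was that of LYZ, called higher at 5848 against 3170 CPM, since the other 10 markers summed to 1203 to 1244 CPM in UC64 and 1273 to 1375 CPM in DMSO libraries. HOXA9 and ITGAM were called lower. Summed markers of other cell types stayed at or below 1.86 CPM in every library for B cells, erythroid cells, megakaryocytes and stroma. Epithelial markers summed to 16.5 to 19.9 CPM, nearly all of it KRT8 and KRT18. The T and NK cell list summed to 31.8 to 44.1 CPM in UC64 and 48.1 to 55.9 CPM in DMSO libraries, most of it NKG7, with CD3G and CD2 at 0 in every library and CD3D called lower at 0.507 against 1.09 CPM (edgeR adjusted p = 0.0358). Its part in the results was not tested.

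Levels of the enzymes spanned a wide range. Per kilobase of the principal transcript of each gene, ENO1, the enolase, was highest at 1961 ± 162 CPM per kilobase in DMSO (SD, n = 3), and HK1 lowest at 8.45 ± 1.47 CPM per kilobase, a ratio of 232. Between them, in falling order, came ALDOA at 1294 ± 181, TPI1 at 746 ± 32.3, LDHA at 719 ± 27.2, PKM at 527 ± 34.6, GPI at 142 ± 16.3, PFKL at 91.3 ± 17.8, PFKP at 51.9 ± 7.16 and HK2 at 26.6 ± 1.55 CPM per kilobase. The enzymes at the entry of the pathway thus stood lowest, and those of the lower steps highest. Of the 9 neighbouring pairs in this order, only TPI1 and LDHA overlapped in range between libraries, and TPI1 was above LDHA in 3 of 6 libraries. In UC64 libraries the order was the same except that LDHA, at 773 ± 62.7 CPM per kilobase, stood above TPI1, at 722 ± 33.6. With the exon union of each gene as its length, the order of DMSO means was the same, but the DMSO ranges of PFKL, PFKP and HK2 overlapped. In UC64, with these lengths, TPI1 stood above LDHA and PFKP above PFKL.

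**Figure D1:**
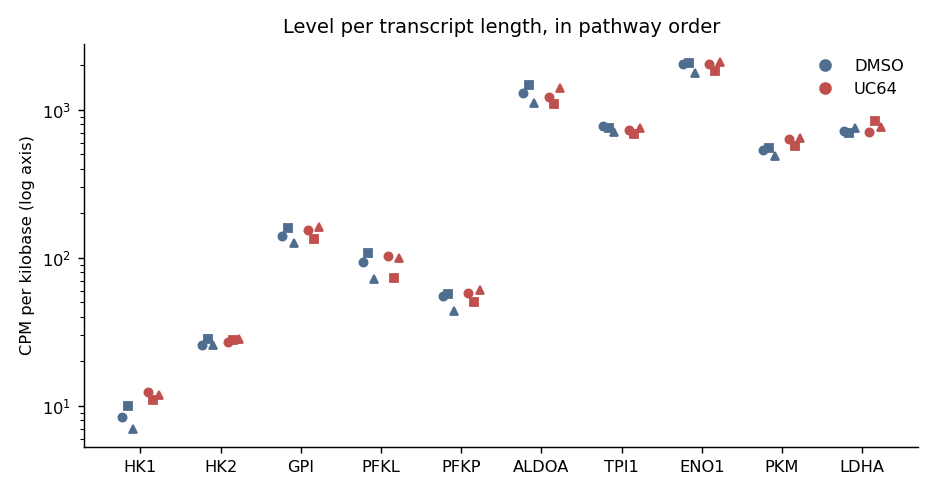
Level of each enzyme in CPM per kilobase of its principal transcript, on a log axis, in pathway order. Each point is 1 library, blue for DMSO and red for UC64, with circle, square and triangle for the libraries in the order of their column names. ENO1 stands highest and HK1 lowest, and the HK1 groups do not overlap.

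Promoter letters are shown for HK2, ALDOA and LDHA, each at the RefSeq start with the most matches to the core letters. A CACGTG counts on each strand, and each ALDOA start holds the core letters at 1 place, so its printed start was picked by its CACGTG. ALDOC, the aldolase isozyme called lower, is shown to set a pair of isozymes side by side. RefSeq promoters (GRCh38.p14, 250 bases before to 50 after a start) were matched for all 10 enzymes, at 24 starts. The letters ACGTG or GCGTG, on either strand, stood at 16 of these 24 starts, against 48.4% of 35116 RefSeq promoters of the same length. Each of the 10 enzymes had a match at 1 or more of its starts, a count per gene that the share per promoter cannot be set against. The longer CACGTG, which contains ACGTG on both strands, stood at 3 starts, those of HK2, ALDOA and LDHA, against 7.26% of all promoters. Of the 11 other pathway genes called lower, 10 were matched, and ACGTG or GCGTG stood at 11 of their 14 starts. Windows of neighbouring starts overlap for HK1, ALDOA and MPC2, so starts are not independent and these shares are a description only. Capitals mark the matches, which are letters only, and which start these cells use was not measured.
HK2, chr2:74834920-74835219, plus strand: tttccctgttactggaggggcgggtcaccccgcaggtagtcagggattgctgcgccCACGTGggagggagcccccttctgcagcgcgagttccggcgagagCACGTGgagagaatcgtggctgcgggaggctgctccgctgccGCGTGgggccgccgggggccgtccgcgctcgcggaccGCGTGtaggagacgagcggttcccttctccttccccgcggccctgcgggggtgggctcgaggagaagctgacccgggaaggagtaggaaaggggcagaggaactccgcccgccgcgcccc
ALDOA, chr16:30064247-30064546, plus strand: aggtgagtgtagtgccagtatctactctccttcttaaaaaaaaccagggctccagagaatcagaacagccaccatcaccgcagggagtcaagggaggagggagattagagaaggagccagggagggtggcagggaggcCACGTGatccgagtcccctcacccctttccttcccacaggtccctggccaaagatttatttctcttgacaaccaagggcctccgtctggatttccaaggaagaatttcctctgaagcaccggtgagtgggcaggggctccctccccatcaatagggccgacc
ALDOC, chr17:28576846-28577145, minus strand: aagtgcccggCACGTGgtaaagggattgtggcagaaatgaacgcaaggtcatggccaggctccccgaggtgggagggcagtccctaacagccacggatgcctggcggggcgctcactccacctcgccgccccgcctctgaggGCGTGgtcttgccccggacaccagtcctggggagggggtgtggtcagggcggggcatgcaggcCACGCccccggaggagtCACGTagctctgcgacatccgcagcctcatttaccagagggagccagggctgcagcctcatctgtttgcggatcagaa
LDHA, chr11:18394313-18394612, plus strand: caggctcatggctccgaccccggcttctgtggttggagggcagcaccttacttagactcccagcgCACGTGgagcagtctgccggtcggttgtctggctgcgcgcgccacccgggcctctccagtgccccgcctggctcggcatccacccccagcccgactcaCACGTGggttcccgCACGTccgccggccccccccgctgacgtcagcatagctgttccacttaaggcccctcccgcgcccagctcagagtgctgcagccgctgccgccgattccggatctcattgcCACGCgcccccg
The printed HK2 and LDHA windows hold CACGTG at 2 places each, and the ALDOA and ALDOC windows at 1 place each. The core letters stand beside genes that were called lower and beside genes that were not. Whether HIF1A or MYC acted at these letters was not tested.

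Of the 10 enzymes, 1 rose after UC-764864 and 0 fell, against 13.2% of all tested genes called, 5.11% higher and 8.13% lower. A call is an adjusted p under 0.05 in edgeR's quasi-likelihood test, with Benjamini-Hochberg adjustment over all genes tested. Over all genes 690 were called higher and 1097 lower, with 508 and 1271 when libraries were scaled by size only. With each library's GC trend removed, over the 11634 tested genes with a GC value, 2004 and 1757 were called. The share of 1 in 10 is near the 13.2% of all tested genes called. The enzyme that rose was HK1. For the other 9, fitted levels lay between 96.3% and 117% of DMSO, and their 95% intervals together ran from 0.783-fold, for PFKL, to 1.37-fold, for PKM. The median log2 fold change of the 10 was 0.07, against 0.01 for all genes tested, and −0.02 with the GC trend removed. In bulk RNA, a change in the cells that express a gene and a change in RNA per cell cannot be told apart.

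Hexokinases open the pathway. HK1, the broadly expressed hexokinase that sits on the mitochondrial outer membrane, stood at 44.9, 39.5 and 42.7 CPM in UC64 libraries UDI0051, UDI0052 and UDI0053 and at 30.1, 35.9 and 25.3 CPM in DMSO libraries UDI0054, UDI0055 and UDI0056. The groups did not overlap, and the gap between the lowest UC64 and the highest DMSO library was smaller than the spread within DMSO. Its rise was 1.39-fold, from 30.5 ± 5.32 to 42.4 ± 2.74 CPM (SD, n = 3), a log2 fold change of 0.47 ± 0.14 (SE, edgeR adjusted p = 0.0482), at rank 1712 by p among all genes tested. The call was lost without UDI0051 (edgeR adjusted p = 0.196), UDI0052 (0.069), UDI0053 (0.132), UDI0054 (0.148) or UDI0056 (0.0864), and it held without UDI0055 (0.0113). It was also lost with RLE factors (0.0503), with library size only (0.06) and with every row as deposited (0.114), while the value stayed between 0.33 and 0.61 in these and all other alternatives.

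HK2, the inducible hexokinase typical of tumour cells, stood at 156, 160 and 163 CPM in UC64 and at 149, 164 and 148 CPM in DMSO libraries. The groups overlapped, and its log2 fold change of 0.06 ± 0.11 did not pass (edgeR adjusted p = 0.752). The ratio of HK1 to HK2 counts was 0.287, 0.247 and 0.263 in UC64 and 0.202, 0.219 and 0.171 in DMSO libraries, so that every UC64 library stood above every DMSO library. On the log2 scale the ratio differed by 0.43 (exact two-sided permutation test over 6 libraries, p = 0.1, not adjusted). A p of 0.1 is the smallest that this permutation test can give with 20 splits of 3 against 3 libraries, so it cannot reach 0.05 here. HK2 stayed the larger of both transcripts in every library, in CPM and in CPM per kilobase.

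The genes with a pattern most like that of HK1 over the 6 libraries were NTMT1, NFRKB and ZZEF1, with Pearson r of log2 CPM of 0.9992, 0.99835 and 0.99821. With 6 libraries in 2 groups, 119 genes reached an r over 0.99, so these values describe the libraries only.

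**Figure D2:**
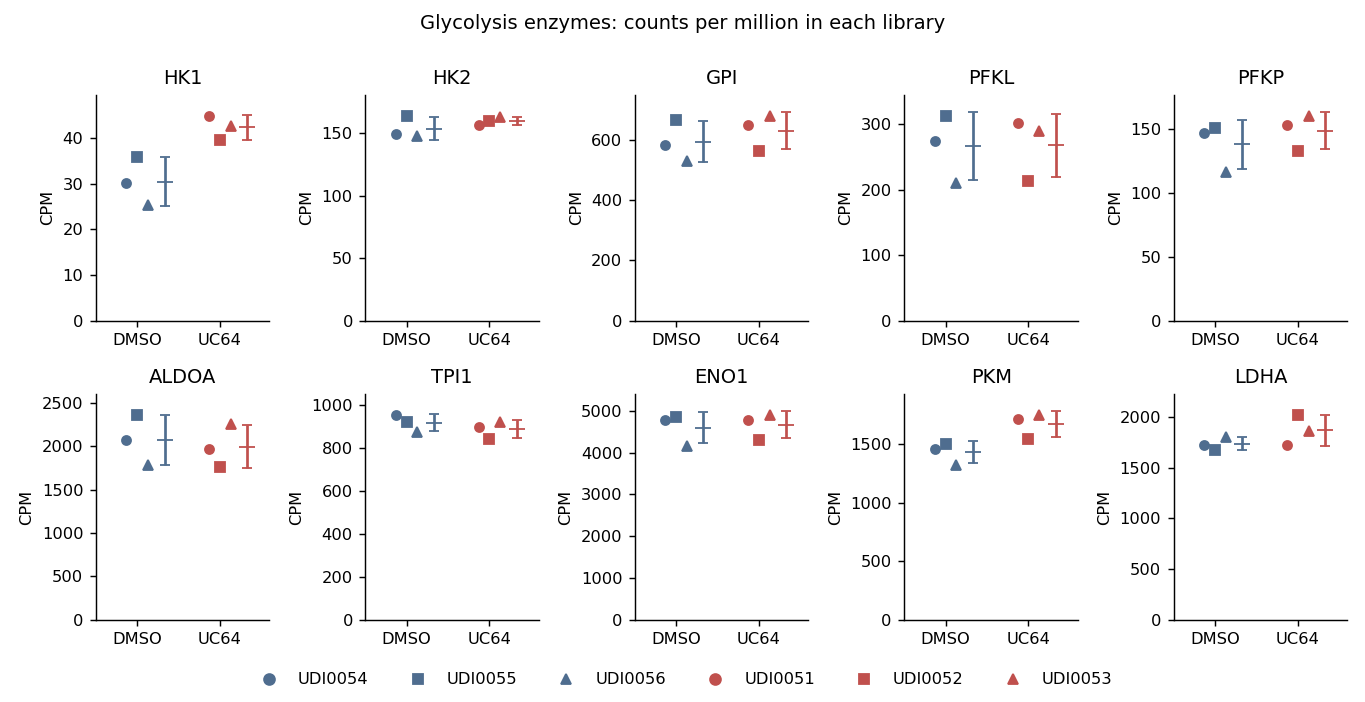
CPM of each enzyme in every library, on axes that start at 0, with the mean and SD of each group as a bar at its right. HK1 and PKM are the 2 enzymes whose UC64 libraries all lie above the DMSO libraries, and the red squares (UDI0052) and blue triangles (UDI0056) mark the library that is lowest of its group for most enzymes.

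GPI, the isomerase that turns glucose phosphate into fructose phosphate, stood at 651, 562 and 681 CPM in UC64 and at 585, 667 and 531 CPM in DMSO libraries. Its groups overlapped (log2 fold change 0.09 ± 0.12, edgeR adjusted p = 0.657). The phosphofructokinase subunits make the committed and most regulated step. PFKL, the liver type subunit, stood at 301, 213 and 290 CPM in UC64 and at 274, 313 and 210 CPM in DMSO libraries. Both groups held 1 low library, UDI0052 and UDI0056, and the means of 268 ± 48.1 and 266 ± 51.8 CPM were closer than the spread between replicates (0.01 ± 0.17, edgeR adjusted p = 0.972). PFKP, the platelet type subunit, stood at 153, 132 and 160 CPM in UC64 and at 147, 151 and 116 CPM in DMSO libraries, and did not pass (0.11 ± 0.13, edgeR adjusted p = 0.61). The ratio of PFKL to PFKP was 1.80 ± 0.182 in UC64 and 1.92 ± 0.14 in DMSO (exact two-sided permutation p = 0.4, not adjusted), with overlapping groups.

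ALDOA, the main aldolase of blood cells and muscle, stood at 1968, 1761 and 2259 CPM in UC64 and at 2076, 2363 and 1782 CPM in DMSO libraries. The groups overlapped (−0.06 ± 0.13, edgeR adjusted p = 0.802). In GENCODE 29 a protein-coding readthrough gene shares 42.3% of the exon bases of ALDOA, which makes its count uncertain where counting drops shared reads. TPI1, the triosephosphate isomerase, stood at 899.5, 843 and 924 CPM in UC64 and at 957, 921.5 and 877.5 CPM in DMSO libraries (−0.05 ± 0.10, edgeR adjusted p = 0.776). Its SD of 41.4 and 39.8 CPM is small beside its mean, and the groups still overlapped. Named pseudogene copies in the table drew 1.77% to 2.64% as many counts as TPI1 and 2.29% to 3.17% as many as LDHA, so reads shared with copies add a small uncertainty to both.

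ENO1, which makes phosphoenolpyruvate and whose locus also gives a shorter MYC-repressing protein, stood at 4785, 4298 and 4906 CPM in UC64 and at 4791, 4845 and 4163 CPM in DMSO libraries. Its groups overlapped almost fully (0.02 ± 0.10, edgeR adjusted p = 0.914). PKM, pyruvate kinase of most proliferating cells, stood at 1719, 1547 and 1752 CPM in UC64 and at 1463, 1505 and 1325 CPM in DMSO libraries. Every UC64 library was above every DMSO library, as for HK1, and groups did not overlap for 36.1% of all tested genes, with UC64 higher for 19.0%. The difference of PKM, from 1431 ± 94.1 to 1673 ± 110 CPM (0.23 ± 0.10), did not pass (edgeR adjusted p = 0.16), nor under any of 14 alternatives (0.0785 to 0.434). Counts per gene do not separate its splice forms PKM1 and PKM2.

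LDHA, the lactate dehydrogenase subunit that favours lactate production, stood at 1720, 2022 and 1859 CPM in UC64 and at 1725, 1677 and 1807 CPM in DMSO libraries. The groups overlapped (0.10 ± 0.10, edgeR adjusted p = 0.513), with UDI0052 highest in UC64 and UDI0056 highest in DMSO. The ratio of LDHA to LDHB, the subunit of the heart type enzyme, was 1.33 ± 0.0686 in UC64 and 1.31 ± 0.0659 in DMSO (exact two-sided permutation p = 0.8, not adjusted).

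The spread within groups followed 2 libraries. UDI0052 was lowest of the UC64 libraries for 8 of the 10 enzymes, and UDI0056 lowest of the DMSO libraries for 9. PFKL, whose longest coding transcript has 63.5% GC, was lower by a log2 difference of −0.47 in UDI0052 and −0.48 in UDI0056 than the other libraries of its group. LDHA, with 44% GC, was higher in both, by 0.18 and 0.09. Across the 10 enzymes the mean of both differences had a Pearson r of −0.82 with GC content, a description over genes that share the same 6 libraries. Both libraries were picked for their small share of counts in GC-rich genes, so this r is not independent of that choice. The comparison has 1 such library in each group, and without both, HK1 remained called (log2 fold change 0.38, edgeR adjusted p = 0.0448) and 0 other enzymes passed. With each library's GC trend removed, HK1 was at 0.33 (edgeR adjusted p = 0.00995) and PKM at 0.14 (0.162).

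**Figure D3:**
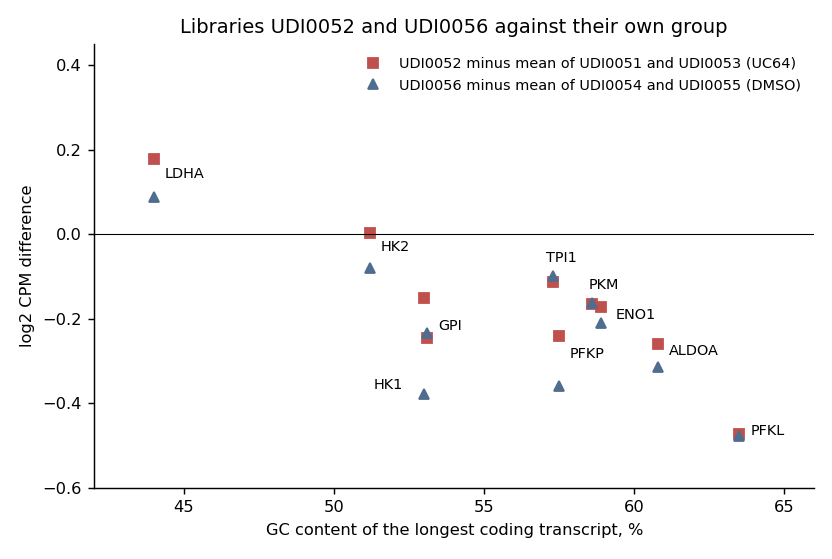
Log2 CPM of each enzyme in UDI0052 (squares) and UDI0056 (triangles) minus the mean of the other 2 libraries of the same group, against the GC content of the longest coding transcript in percent. Values fall from above 0 for LDHA at 44% GC to below −0.4 for PFKL at 63.5% GC in both libraries.

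The lists of related genes, here and below, were drawn up with earlier results of these data known. Of 20 other glycolysis enzymes and isozymes listed, 10 were tested, 3 fell and 0 rose, against 8.13% of all tested genes called lower and 5.11% higher. Those that fell were 3 minor isozymes of steps whose main isozyme is among the 10. PFKM and ENO3, other minor isozymes of such steps, were not called (0.59 ± 0.19 and −0.23 ± 0.16, edgeR adjusted p = 0.0601 and 0.351). HK3, a hexokinase of myeloid cells, stood at 1.94, 2.4 and 1.89 CPM in UC64 and at 4.73, 3.97 and 3.43 CPM in DMSO libraries, 1.97-fold lower (−0.98 ± 0.20, edgeR adjusted p = 0.0138). ALDOC, the brain type aldolase, stood at 62.2, 63.2 and 95.6 CPM in UC64 and at 146, 123 and 146 CPM in DMSO libraries (−0.91 ± 0.17, edgeR adjusted p = 0.00918). ENO2, the neuronal type enolase, stood at 10.7, 10.1 and 11.9 CPM in UC64 and at 23.6, 15.1 and 21.7 CPM in DMSO libraries (−0.88 ± 0.17, edgeR adjusted p = 0.0117). For all 3 the groups did not overlap, against 17.0% of all tested genes in the lower direction. HK3 was lost without UDI0051 (edgeR adjusted p = 0.0699), UDI0053 (0.0542) or UDI0054 (0.0614), and ENO2 without UDI0054 (0.0532). All 3 were lost with every row as deposited (0.0568 to 0.0608).

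The minor isozymes that fell were set against the main ones by ratio, added after their values were seen. Since these genes were taken because they were called lower, the ratios restate those calls and are given with no test. On the log2 scale HK3 over HK2 differed by −1.01, ALDOC over ALDOA by −0.88 and ENO2 over ENO1 by −0.88 between UC64 and DMSO. In each case all UC64 libraries were below all DMSO libraries. ALDOC was at a ratio of 0.0366 ± 0.00537 to ALDOA in UC64 and 0.0681 ± 0.0152 in DMSO, and ENO2 at 0.00234 ± 0.000102 and 0.00442 ± 0.00113 to ENO1, so ALDOA and ENO1 far outnumbered these isozymes in every library.

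**Figure D4:**
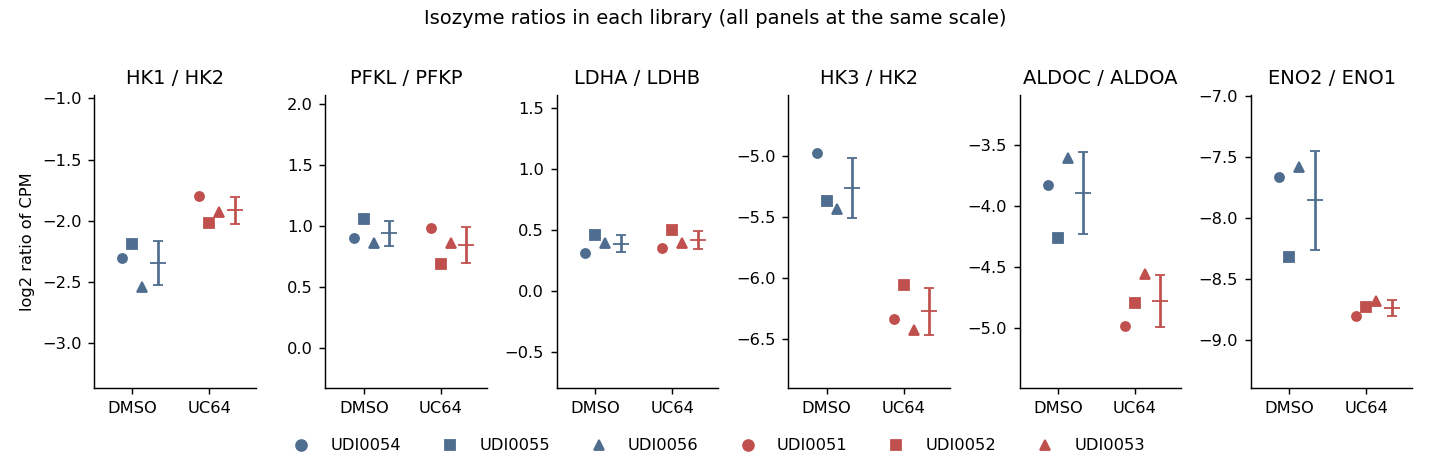
Log2 ratio of CPM of isozyme pairs in each library, with the mean and SD of each group as a bar and all panels drawn at the same scale. HK1 over HK2 is higher in all UC64 libraries, PFKL over PFKP and LDHA over LDHB overlap between groups, and HK3 over HK2, ALDOC over ALDOA and ENO2 over ENO1 are lower in all UC64 libraries.

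The housekeeping enzyme GAPDH, at 4300 ± 310 CPM in UC64 and 4261 ± 562 in DMSO, did not pass (0.01 ± 0.12, edgeR adjusted p = 0.949). LDHB at 1398 ± 46.2 and 1328 ± 93 CPM and the mutase gene PGAM1 at 372 ± 25.6 and 369.5 ± 44 CPM did not pass either (edgeR adjusted p = 0.65 and 0.969). PGK1, which lies in the rows missing from UDI0055, was at 1031 ± 25.1 CPM in 3 UC64 libraries and 1171 ± 26.7 CPM in 2 DMSO libraries. In a fit over those 5 libraries it had a log2 fold change of −0.18 ± 0.10 and did not pass (edgeR adjusted p = 0.183).

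Sugar and lactate transport genes flank the pathway. Of 9 transport genes tested, 3 fell and 0 rose, against the same 8.13% and 5.11% of all tested genes, with a median of −0.40. SLC2A3, a high-affinity glucose transporter, stood at 73.1, 83.8 and 89.6 CPM in UC64 and at 202, 139 and 229 CPM in DMSO libraries, 2.31-fold lower (−1.21 ± 0.17, edgeR adjusted p = 0.00357). SLC2A5, a fructose transporter, stood at 65.1, 71.7 and 81.8 CPM in UC64 and at 126, 111 and 111 CPM in DMSO libraries (−0.67 ± 0.12, edgeR adjusted p = 0.00929). SLC2A14 (−0.59 ± 0.18, edgeR adjusted p = 0.0482) is a near copy of SLC2A3, so its counts are uncertain. For these 3 genes the groups did not overlap, as for 17.0% of all tested genes in the lower direction. SLC2A5 was lost without UDI0051 (0.0591), and SLC2A14 without UDI0051 (0.254), UDI0053 (0.114), UDI0054 (0.123) or UDI0056 (0.0691). Lactate carriers did not pass, with SLC16A1 at −0.08 ± 0.12, SLC16A3 at −0.22 ± 0.18 and their chaperone BSG at 0.22 ± 0.14 (edgeR adjusted p = 0.67, 0.43 and 0.331).

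Of 14 tested regulators of glycolytic flux, 5 fell and 0 rose, against 8.13% of all tested genes called lower and 5.11% higher, with a median of −0.08. TXNIP, a glucose-induced brake on glucose uptake, went from 354 ± 40.4 to 195 ± 18.7 CPM (−0.86 ± 0.12, edgeR adjusted p = 0.00357), and its relative ARRDC4 from 20.7 ± 1.67 to 13.3 ± 1.44 CPM (−0.63 ± 0.14, adjusted p = 0.0158). PFKFB4, which sets the level of an activator of phosphofructokinase, went from 106 ± 9.49 to 60.1 ± 17.4 CPM (−0.81 ± 0.18, edgeR adjusted p = 0.0162). PDK1, a kinase that inhibits pyruvate dehydrogenase in the mitochondrial matrix, and MPC2, a subunit of the mitochondrial pyruvate carrier, fell by 0.55 ± 0.16 and 0.50 ± 0.12 on the log2 scale (adjusted p = 0.0446 and 0.0228). The list thus holds genes of opposite roles among those that fell. TXNIP and SLC2A3 were called under all 14 alternatives, with adjusted p up to 0.0447 and 0.0479.

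Single libraries decided some of these calls. Without UDI0051 the adjusted p (edgeR) rose to 0.071 for PFKFB4, 0.0978 for ARRDC4, 0.143 for MPC2 and 0.19 for PDK1. Without UDI0053 it was 0.0677 for ARRDC4, 0.0607 for MPC2 and 0.127 for PDK1, and without UDI0054 0.0685 for PFKFB4, 0.0707 for MPC2 and 0.115 for PDK1. PDK1 was also lost without UDI0056 (0.0807). With every row as deposited all of them were lost except TXNIP, at 0.072 for PFKFB4, 0.0611 for ARRDC4, 0.0618 for MPC2 and 0.114 for PDK1, as was SLC2A14 (0.0935). Among regulators that were not called, PDHB, MPC1 and PFKFB3 had log2 fold changes of −0.04, 0.07 and −0.11 (edgeR adjusted p = 0.826, 0.682 and 0.534).

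Of 18 tested genes on branches from glycolysis, 0 were called by edgeR, while DESeq2 called 2, PGD and TALDO1, as higher. At an unadjusted p under 0.05, 6 of the 18 passed, near the 31.5% of all tested genes. PGD, RPIA and TALDO1 of these had values above 0, and RPE, GPD2 and FBP1 values below 0. The most abundant enzymes of the pentose phosphate pathway, TKT, PGD and TALDO1, had log2 fold changes of 0.26 ± 0.14, 0.36 ± 0.11 and 0.41 ± 0.14 (edgeR adjusted p = 0.234, 0.0555 and 0.065). Other enzymes of that pathway stood on both sides of 0, with RPIA at 0.28 ± 0.12, RPE at −0.33 ± 0.13 and PGLS at −0.06 ± 0.16 (edgeR adjusted p = 0.139, 0.118 and 0.822).

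**Figure D5:**
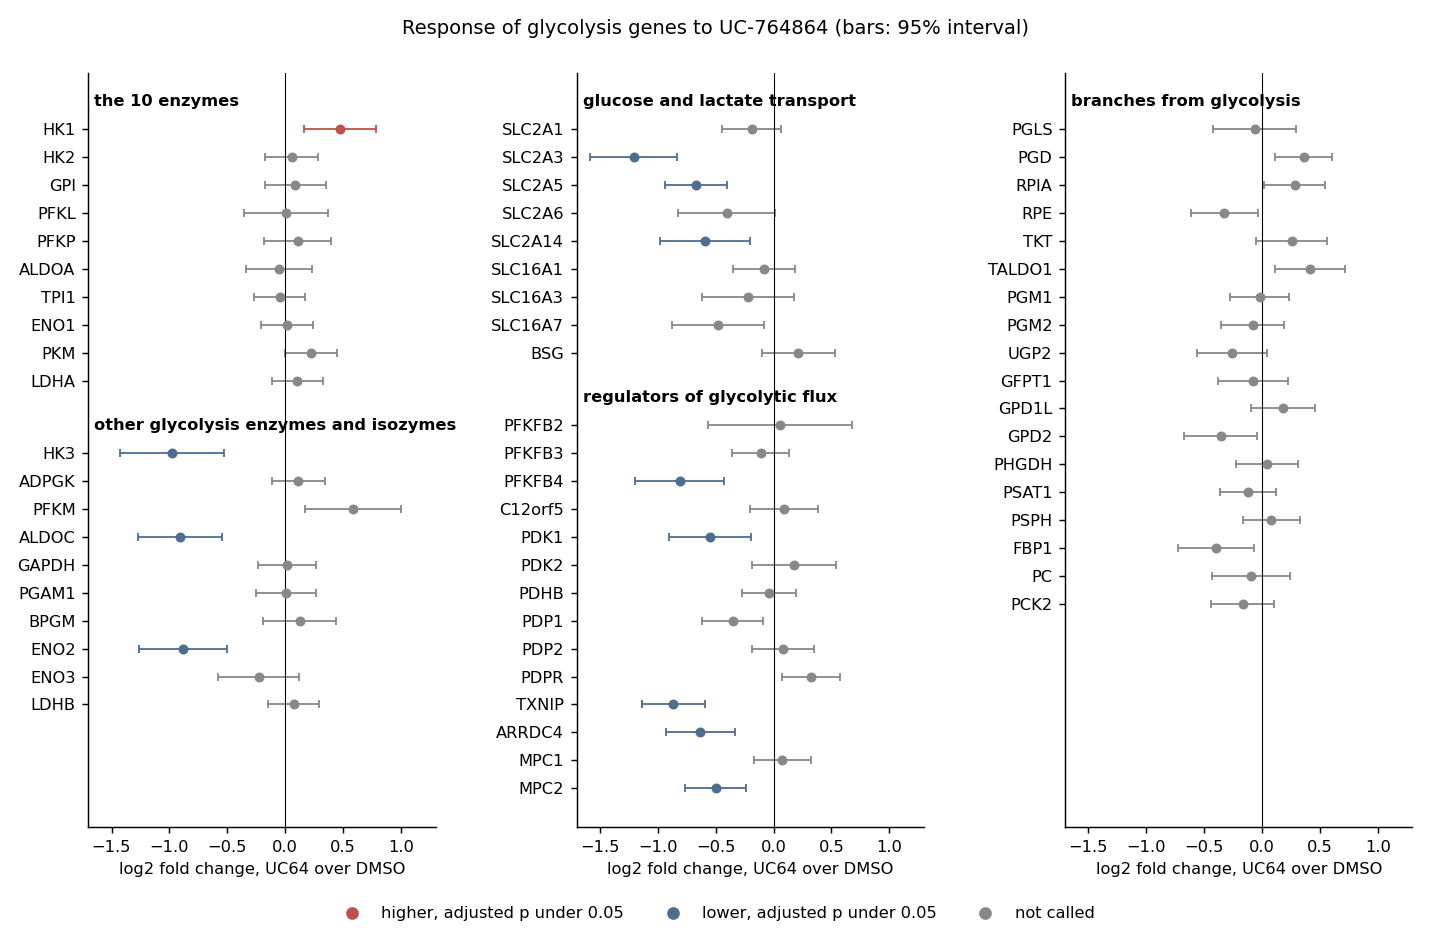
Log2 fold change of each tested gene, UC64 over DMSO, with its 95% interval, for the 10 enzymes in pathway order and the 4 lists of related genes. HK1 is the 1 gene called higher (red), the other 9 enzymes lie near 0 (grey), and the genes called lower (blue) are 3 minor isozymes, 3 transporters and 5 regulators. C12orf5 is the older symbol of TIGAR.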

How the data were processed

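Poly(A) RNA of 6 MOLM-13 libraries was sequenced with paired 75 bp reads, per the labels' protocols. The deposited table holds raw gene counts, not normalized, and a second table gives each column its treatment. HISAT2 2.0.5, featureCounts 1.5.2, FastQC 0.11.7 and GRCh37 are named, without roles, per the submitters' processing notes. Annotation release and strand setting were not given in the sources used here, so antisense reads cannot be told apart. Columns carry no replicate numbers, and no label says whether libraries are from separate cultures. The p-values therefore reflect only how these samples spread, possibly for technical reasons. Pairs of libraries within a group had a chi-square of 4.4 to 41 per degree of freedom, so none was counted as a repeat.

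Both unbroken runs of rows at 0 in UDI0055 were read as missing and left out whole. Counts were filtered with filterByExpr, scaled with TMM factors and tested with edgeR 4.0.16 (quasi-likelihood, R 4.3.3, DESeq2 1.42.0 as an alternative), with treatment as the only term. Benjamini-Hochberg adjustment ran over 13490 genes, with a threshold of 0.05. CPM use TMM-scaled library sizes, and SE is the log2 fold change over the square root of F. Transcript lengths and GC content come from GENCODE 29 by symbol, with a GC value for 86.2% of tested genes. A count of 3, the floor, is 0.123 to 0.198 CPM, and covers counting error only. Scripts were tested on simulated data.

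Named genes are the 10 enzymes and, of each related list, all genes called and the 3 most abundant others; PGK1, PDHA1, PFKM, GFPT1, RPIA, RPE, PGLS, GPD2 and FBP1 were added after their values were seen, and 1 listed gene is not reported here. Members, lists and ratios were chosen with earlier results of these data known. Alternatives changed scaling, filter, tool, rows, GC trend and libraries.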

Additional observations from a re-analysis of the deposited data

How the results depend on the processing

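No paired analysis was possible because the columns of the count table carry no replicate numbers. Over all genes, 690 were higher and 1097 lower. With every row as deposited the counts were 22 and 125. With the GC trend removed, over tested genes with a GC value only, they were 2004 and 1757. With UDI0055 left out and every row kept, an alternative chosen after seeing the data, they were 1401 and 1974. With no filter 1676 were lower. Leaving out 1 library gave 62 to 1525 higher and 278 to 1729 lower. Of the 10 enzymes, 0 were higher with RLE factors, library size only or every row as deposited, and 0 to 1 without 1 library, while 0 were lower throughout. Of the other pathway genes, 0 were higher and 11 lower; 1 was higher with no filter (TALDO1), 2 with DESeq2, 4 with the GC trend removed (PGD, TALDO1, BSG and GFPT1), 5 with UDI0055 out and every row kept, and 0 to 3 without 1 library. With every row as deposited 3 were lower, with the GC trend removed 16, and 4 to 13 without 1 library. The 16 included SLC16A3 and PFKFB3, which the main fit did not call (−0.23 and −0.235, edgeR adjusted p = 0.0493 and 0.0181). Values of enzymes that were never called changed sign as follows. PFKL went to −0.0089 with RLE factors, −0.036 with library size only, −0.0026 with no filter, −0.0088 with DESeq2, −0.015 with every row as deposited, −0.016 without UDI0052 and UDI0056, and −0.081, −0.045 and −0.13 without UDI0051, UDI0053 or UDI0056 (up to 0.14 without 1 library). ENO1 went to −0.027 with library size only, −0.0048 with every row as deposited, −0.017 without UDI0052 and UDI0056, −0.057 with the GC trend removed, and −0.014 and −0.046 without UDI0053 or UDI0056 (up to 0.059). HK2 and GPI were at −0.085 and −0.053 with the GC trend removed, and PFKP at −0.00073 without UDI0056 (up to 0.18). ALDOA was at 0.00087 without UDI0052, 0.050 without UDI0055 (down to −0.15) and 0.024 with UDI0055 out and every row kept. The log2 ratio of LDHA to LDHB ran from −0.014 to 0.061 without 1 library, and the other 5 ratios kept their sign in these fits and with log2 of CPM + 1. The causes were not tested. Each enzyme had at least 384 counts in every library, and what limits the precision was not tested.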

Other observations

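Genes of the pathway that lie in the rows missing from UDI0055 were read over the other 5 libraries, 3 UC64 and 2 DMSO, in a fit chosen after seeing the data. PDHA1, a subunit of pyruvate dehydrogenase, stood at 147, 143 and 127 CPM in UC64 and at 102 and 95.6 CPM in DMSO libraries. Its log2 fold change was 0.49 ± 0.12 (SE, edgeR adjusted p = 0.0138). In the same fit PGD, TALDO1 and PFKM were also higher (0.40, 0.51 and 0.65, edgeR adjusted p = 0.0271, 0.0144 and 0.0453). This fit called 5 of the other pathway genes higher and 13 lower, and over all genes 1401 higher and 1974 lower. Over all 6 libraries PFKM, the muscle type phosphofructokinase, stood at 4.92 ± 0.9 CPM in UC64 and 3.24 ± 0.327 CPM in DMSO, with no overlap between groups (0.59 ± 0.19, edgeR adjusted p = 0.0601).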
